A study of Mus musculus with 12 samples.

Results

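The kinases, adaptors, phospholipases and phosphatase that act next to the high-affinity IgE receptor were followed through basophil maturation in mice. The group comprised 10 genes chosen by name for their known role: the kinases Lyn, Fyn, Syk and Btk, the adaptors Lat, Lat2 and Gab2, the phospholipases Plcg1 and Plcg2, and the phosphatase gene Inpp5d. They were found by symbol among the 32227 genes of the table, and all 10 were among the 15083 genes tested. Bulk RNA-seq had been carried out on 12 libraries of sorted C57BL/6J wild-type cells, 3 per group. The bone marrow (BM) gave CD200R3+ cKit- CLEC12A-high CD34+ basophil progenitors (BaPs), CD34- CLEC12A-high CD9-low pre-basophils, which the sample titles call immature basophils, and CD34- CLEC12A-low CD9-high mature basophils. The spleen gave mature basophils with the same surface phenotype. No treatment was given to any group, and the sources used here do not give the age and sex of the mice. Each library pooled cells of several mice within a single experiment, so that the errors below are the spread between pools.

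On basophils and mast cells, antigen that bridges receptor-bound IgE lets the Src family kinase Lyn phosphorylate the signalling motifs of the beta and gamma receptor chains, to which the kinase Syk then binds. Syk phosphorylates the membrane adaptors LAT and LAT2 (also called NTAL). On LAT, phospholipase C gamma is assembled and, with help from Btk, activated to release calcium. Fyn and the adaptor GAB2 lead to the PI3 kinase branch, and SHIP1, the product of Inpp5d, removes the lipid that PI3 kinase makes and so restrains degranulation.

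The library totals ran from 3596108 to 8151030 counts, and each member had between 28 and 5156 counts in a library. Values are CPM (counts of a gene per megaread of the library) after TMM scaling of library sizes, listed in the order of replicates 1 to 3, and fold changes as log2 values with their standard errors (SE) from edgeR's quasi-likelihood fit. Intervals cover the spread between libraries, and fewer cells of a type and less RNA per cell cannot be told apart in such sorted bulk samples. All 8 basophil markers looked up had counts in every group, with summed levels of 24180 to 65240 CPM for BaPs, 59290 to 67780 for pre-basophils, 10300 to 13000 for BM mature and 5133 to 5812 for spleen mature basophils. Prss34 alone had 42580 to 49580 CPM in pre-basophils and 3798 to 5708 in BM mature basophils. Mcpt8, Fcer1a, Ms4a2 and Il3ra were also lower in BM mature basophils. Higher there than in pre-basophils were Gata2 (2006 to 2455 beside 1868 to 1942 CPM), Cd200r3 (1088 to 1154 beside 906.5 to 982) and Itga2 (157 to 201 beside 72.9 to 97.6). BaP replicate 3 stood apart. It gave the lowest basophil sum of its group (24180 CPM, against 60540 and 65240), and its sums were 420.5 CPM for NK cell markers (1.43 and 2.36 in the other BaP libraries), 213 for T cell markers (12.7 and 9.19) and 1888 for erythroid markers (4.54 and 4.48). Among its defining NK and T cell genes, Ncr1 lay at 94.3 CPM and Cd3e at 31.2 CPM, against 0 to 0.47 in BaP replicates 1 and 2. Each comparison that used BaPs is therefore given with and without that library. B cell markers summed to 180.5 to 325 CPM in spleen mature basophils and to 34.4 to 50.2 CPM in BM mature basophils. In BaP replicate 3 they summed to 177.5 CPM, against 33.9 and 34.9 in BaP replicates 1 and 2. Monocyte and macrophage markers summed to 301 CPM in BaP replicate 3, against 33.0 and 37.0 in the other BaP libraries. Neutrophil markers summed to 1895 to 2295 CPM for BaPs, 908 to 2132 for pre-basophils, 80.7 to 115 for BM mature and 56.3 to 64.4 for spleen mature basophils. These sums joined genes of opposite course. In BaP replicates 1 to 3, Mpo fell (1792, 1402 and 562.3 CPM) while S100a9 rose (44.67, 227.3 and 605.3). S100a9 also rose over pre-basophil replicates 1 to 3 (117.4, 279.5 and 609.2 CPM). Ltf, Ngp, Camp, S100a8 and Mmp8 rose in the same replicate order in both groups, and Elane did not. The part of cells of other types in the results below was not tested.

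Promoter sequence was looked up for the members because several of them moved together, and 7 of the 10 had an entry in the RefSeq promoter table (GRCm38.p6). Shown are the 250 bases before the start of Syk (the second of its listed starts), Inpp5d, Btk, Plcg1 and Plcg2. The levels of Syk and Inpp5d ran in parallel (Pearson r 0.921), but those of Inpp5d and Lat2, which had no entry, did so more closely (0.929). Btk was one of the genes that differed at every BM step, and the ratio of the phospholipase genes Plcg1 and Plcg2 differed between stages. Capitals mark AGATAA or TGATAA, letters that GATA factors bind, and GAGGAA, which PU.1 binds, on either strand. A match on the other strand is printed as its reverse complement, such as TTATCA for TGATAA and TTCCTC for GAGGAA.
Syk, chr13:52596632-52596881, plus strand: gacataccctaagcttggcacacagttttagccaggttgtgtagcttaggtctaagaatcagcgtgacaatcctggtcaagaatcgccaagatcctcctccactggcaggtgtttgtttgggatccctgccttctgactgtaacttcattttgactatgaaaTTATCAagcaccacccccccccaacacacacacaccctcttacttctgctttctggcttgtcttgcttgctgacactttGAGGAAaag
Inpp5d, chr1:87620062-87620311, plus strand: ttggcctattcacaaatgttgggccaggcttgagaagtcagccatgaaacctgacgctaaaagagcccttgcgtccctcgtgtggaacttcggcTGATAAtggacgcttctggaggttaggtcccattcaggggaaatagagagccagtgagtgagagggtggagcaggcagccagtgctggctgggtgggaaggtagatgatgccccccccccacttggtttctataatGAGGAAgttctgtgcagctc
Btk, chrX:134583141-134583390, minus strand: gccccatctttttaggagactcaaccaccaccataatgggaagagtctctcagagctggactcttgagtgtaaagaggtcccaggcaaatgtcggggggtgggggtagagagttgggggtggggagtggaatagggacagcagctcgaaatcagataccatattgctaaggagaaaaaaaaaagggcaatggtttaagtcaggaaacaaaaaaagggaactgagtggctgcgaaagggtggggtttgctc
Plcg1, chr2:160731060-160731309, plus strand: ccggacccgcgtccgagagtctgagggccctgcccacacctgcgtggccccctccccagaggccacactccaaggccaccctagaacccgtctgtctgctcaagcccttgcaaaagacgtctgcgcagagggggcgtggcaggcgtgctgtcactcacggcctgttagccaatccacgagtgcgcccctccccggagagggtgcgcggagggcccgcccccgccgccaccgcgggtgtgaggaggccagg
Plcg2, chr8:117498025-117498274, plus strand: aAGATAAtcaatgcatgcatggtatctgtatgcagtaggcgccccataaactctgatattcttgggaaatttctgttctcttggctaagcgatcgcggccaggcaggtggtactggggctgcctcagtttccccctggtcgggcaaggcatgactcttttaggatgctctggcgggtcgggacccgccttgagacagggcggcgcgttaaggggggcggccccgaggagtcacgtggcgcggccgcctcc
In the window of Inpp5d both motifs were present, TGATAA with its first base 156 bases and GAGGAA 20 bases before the start. The Syk window also held both, TTATCA from 88 and GAGGAA from 9 bases before the start, whereas the window of the first Syk start held neither. Plcg2 had AGATAA 249 bases before its start, and Lat had TTCCTC 113 bases before. The windows of Btk, Fyn and Plcg1 held neither motif. The RUNX letters TGTGGT, searched likewise, were in no member's window. Over 32851 promoters of the same length, 16.6% held a GATA motif, 23.3% the PU.1 motif and 14.0% the RUNX motif. Such matches describe the letters only. Lyn, Lat2 and Gab2 had no entry and are named only.

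Across the 4 groups, edgeR's quasi-likelihood test found differences for all 10 members, with adjusted p-values from 8.2e-07 (Gab2) to 0.0464 (Lat), where 57.8% of all genes tested were called. All 10 were also called without BaP replicate 3. Fyn and Lat lay close to the threshold and lost this call under 12 and 11 of 21 alternatives, respectively, among them the replicate block for Lat (adjusted p 0.0510). Plcg2 lost it under 5 (adjusted p up to 0.0973) and Inpp5d under 1 (0.0536). The members did not form a single pattern. Gab2, Btk and Lat2 were lowest in BaPs, intermediate in pre-basophils and highest in mature basophils. Syk and Lyn were lower in both immature groups than in both mature groups, as was Inpp5d with a smaller difference. Lat was highest in pre-basophils, Fyn in BM mature basophils and Plcg1 in spleen mature basophils, and Plcg2 was lowest in BM mature basophils.

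**Figure D1:**
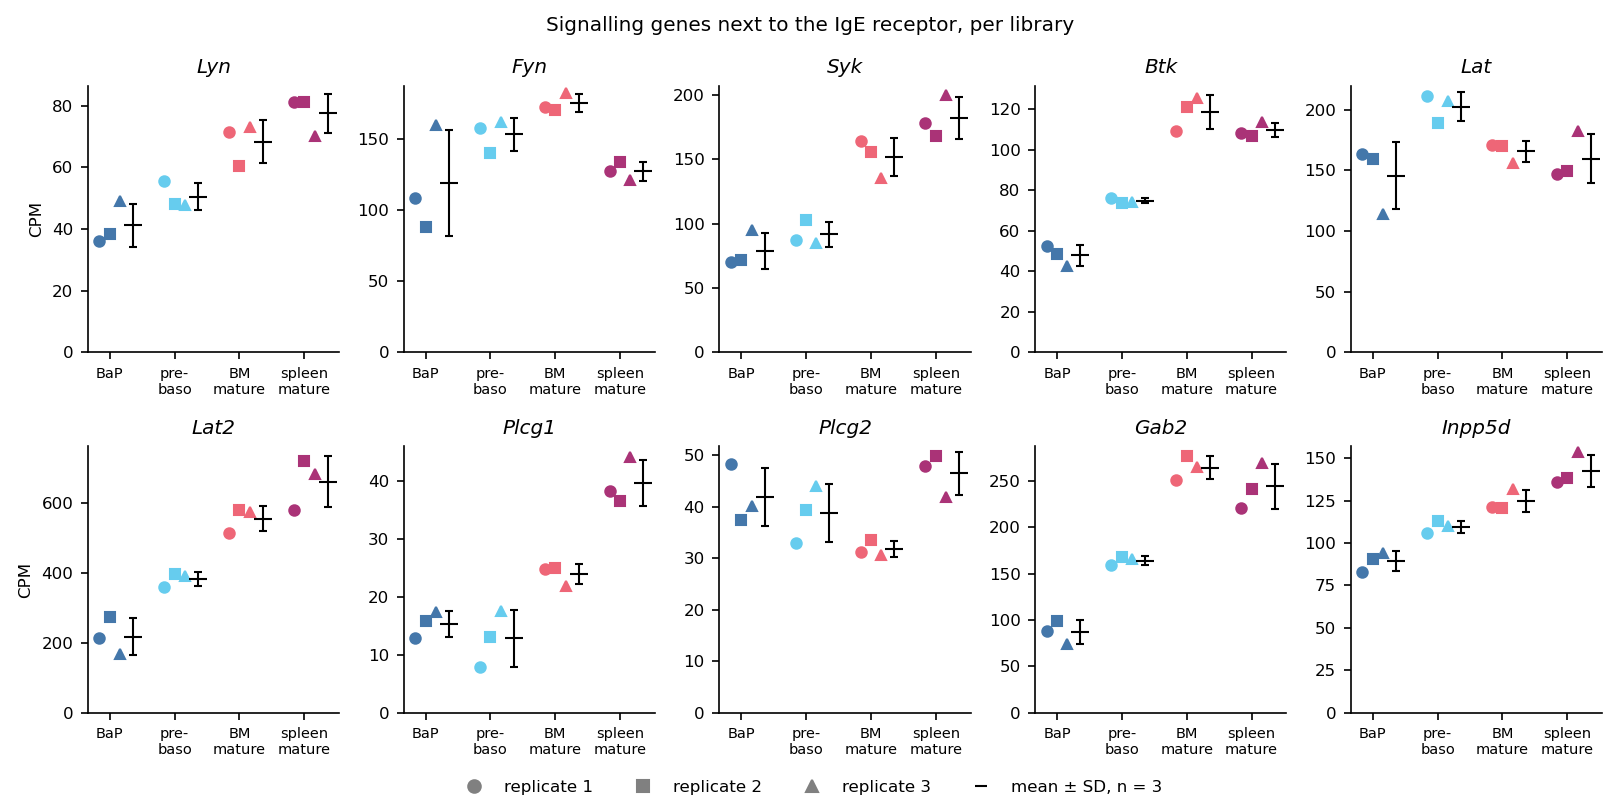
Level of each of the 10 signalling genes in every library, in CPM on a linear axis from 0. Symbols mark replicates 1 to 3 of each group, and the bar beside them the mean ± SD (n = 3). The Gab2 and Btk panels rise from BaPs to pre-basophils to BM mature basophils without overlap, and BaP replicate 3 lies above the other BaP libraries for Fyn (160.3 CPM).

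Lyn (ENSMUSG00000042228.14, GRCm38 chromosome 4, 3678115 to 3813122, plus strand) encodes the Src family kinase that starts the cascade and also feeds inhibitory receptors. Its levels in replicates 1 to 3 were 36.1, 38.4 and 49.2 CPM for BaPs, 55.6, 48.2 and 47.8 for pre-basophils, 71.6, 60.3 and 73.2 for the BM mature group and 81.3, 81.2 and 70.3 for the spleen mature group. All 6 immature libraries lay below all 6 mature ones, and BaPs overlapped with pre-basophils through replicate 3 alone. Pre-basophils had 1.36-fold less Lyn than BM mature basophils (edgeR log2 -0.44 with SE 0.14, adjusted p 0.0337). It did not pass once one of 4 libraries was left out, namely replicates 2 (0.115) and 3 (0.110) of the pre-basophils and replicates 1 (0.0960) and 3 (0.114) of the BM mature group. It also did not pass with the scaling rebuilt from the study (0.0734), without the filter on low counts (0.0578) or with library size alone (0.394). BaPs had 1.65-fold less than BM mature basophils (log2 -0.72, SE 0.14, adjusted p 9.78e-04), and 1.82-fold less without BaP replicate 3, but the call ended with library size alone (0.193). The difference between BaPs and pre-basophils was not called (log2 -0.28, 95% interval -0.59 to 0.02, adjusted p 0.261), nor was it without BaP replicate 3 (log2 -0.43, adjusted p 0.0507).

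Fyn (ENSMUSG00000019843.14, chromosome 10, 39368855 to 39565381, plus strand), the Src family kinase of the GAB2 and PI3 kinase branch, had its highest mean in BM mature basophils. Its levels were 109, 88.4 and 160.3 CPM for BaPs, 158, 140.5 and 162 for pre-basophils, 172.5, 171 and 182.5 for the BM mature group and 127.5, 134 and 121 for the spleen mature group. BaP replicate 3, the library with NK and T cell transcripts, lay among the pre-basophil libraries, and all 3 spleen libraries lay below those of both CD34- BM groups. With all libraries, Fyn passed only in the comparison of BaPs with BM mature basophils (1.46-fold lower, log2 -0.55, SE 0.17, edgeR adjusted p 0.0170), a call that was lost without BaP replicate 1 (0.0620), BaP replicate 2 (0.0743) or BM mature replicate 3 (0.0522), in a fit of these groups alone (0.0670) and with library size alone (0.711). Without BaP replicate 3, the fall was 1.77-fold (log2 -0.82, adjusted p 1.62e-05), and Fyn was then also 1.55-fold lower in BaPs than in pre-basophils (log2 -0.63, adjusted p 0.00207, against -0.36 and 0.223 with it). Fyn in spleen was 1.37-fold below BM mature basophils without being called (log2 -0.46, SE 0.17, adjusted p 0.112). The same difference was called without BaP replicate 3 (adjusted p 0.00477), in a fit that called 2653 of 14723 genes in this comparison, against 1181 of 15083 with all libraries.

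Syk (ENSMUSG00000021457.14, chromosome 13, 52583173 to 52648792, plus strand) encodes the kinase that binds the phosphorylated receptor chains. It stood at 70.2, 71.4 and 94.99 CPM for BaPs, 86.9, 102.5 and 85.2 for pre-basophils, 164, 155.5 and 136 for the BM mature group and 178, 168 and 200 for the spleen mature group. Both CLEC12A-high groups lay below both CLEC12A-low groups without overlap, and BaPs overlapped with pre-basophils. Syk was 1.66-fold lower in pre-basophils than in BM mature basophils, with log2 -0.73 and SE 0.14 (edgeR adjusted p 0.00178). In BaPs it was 1.91-fold lower than in BM mature basophils (log2 -0.94, SE 0.14, adjusted p 1.20e-04), and 2.12-fold lower without BaP replicate 3. Between BaPs and pre-basophils the log2 difference was -0.21 (95% interval -0.51 to 0.10, and -0.36 without BaP replicate 3), and between spleen and BM mature basophils 0.26 (-0.03 to 0.56), and neither was called.

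Btk (ENSMUSG00000031264.13, chromosome X, 134542336 to 134583570, minus strand) encodes the Tec family kinase that helps to activate phospholipase C gamma. Its levels were 52.6, 48.6 and 42.4 CPM for BaPs, 76.0, 73.8 and 74.4 for pre-basophils, 109, 121 and 126 for the BM mature group and 108, 107 and 114 for the spleen mature group. The 3 BM groups were separated without overlap, in the order of the sort, whereas the mature groups overlapped. The step from BaPs to pre-basophils was 1.57-fold (log2 -0.65 for BaPs against pre-basophils, SE 0.11, edgeR adjusted p 0.00450), and 1.47-fold without BaP replicate 3. Pre-basophils were in turn 1.59-fold below BM mature basophils (log2 -0.67, SE 0.11, adjusted p 5.89e-04), which made BaPs 2.49-fold lower than BM mature basophils, or 2.34-fold without BaP replicate 3. For spleen against BM mature basophils the log2 difference was -0.12, with a 95% interval of -0.35 to 0.12.

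The adaptors Lat and Lat2 form a pair of related membrane scaffolds, of which LAT couples to phospholipase C gamma, while LAT2 has both supporting and restraining roles. Lat (ENSMUSG00000030742.7, chromosome 7, 126363824 to 126369570, minus strand) stood at 163, 159 and 114 CPM for BaPs, 211, 189 and 207 for pre-basophils, 171, 170.3 and 156 for the BM mature group and 147, 149.8 and 183 for the spleen mature group. All 3 pre-basophil libraries exceeded the 9 others. No pairwise difference of Lat was called, with log2 0.29 (SE 0.14, edgeR adjusted p 0.150) for pre-basophils against BM mature basophils and -0.48 (SE 0.14, adjusted p 0.0569) for BaPs against pre-basophils. The latter was called by DESeq2 (0.0475) and limma voom (0.0435). Without BaP replicate 3, which had the lowest Lat level of all libraries, pre-basophils exceeded BM mature basophils with an adjusted p of 0.0287, and the difference of BaPs from pre-basophils was -0.32 (adjusted p 0.0715).

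Lat2 (ENSMUSG00000040751.12, chromosome 5, 134600022 to 134615025, minus strand) rose with each BM stage. Its levels were 213, 273 and 168 CPM for BaPs, 361, 397 and 391.5 for pre-basophils, 515, 580.1 and 575 for the BM mature group and 580.1, 722 and 685 for the spleen mature group. The BM groups did not overlap, and spleen and BM mature basophils touched at 580.1 CPM. BaPs were 1.76-fold below pre-basophils (log2 -0.82, SE 0.15, edgeR adjusted p 0.00744), or 1.57-fold without BaP replicate 3 (adjusted p 0.00225). Pre-basophils were 1.45-fold below BM mature basophils (log2 -0.54, SE 0.15, adjusted p 0.0183). The latter did not pass once one of 4 libraries was left out, replicates 1 (0.0841) and 2 (0.0501) of the pre-basophils and replicates 2 (0.0664) and 3 (0.0581) of the BM mature group. It also ended with the scaling rebuilt from the study (0.0541) and with library size alone (0.105). Over the whole BM series, Lat2 was 2.56-fold lower in BaPs than in mature basophils (log2 -1.35, SE 0.16, adjusted p 1.15e-05), and 2.28-fold lower without BaP replicate 3. In the annotation (GENCODE M21, GRCm38), 952 of its 2621 exonic bases (36.3%) also belong to Rfc2 on the opposite strand. The sources used here do not say whether counting used the strand, so reads in that stretch cannot be told apart.

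Gab2 (ENSMUSG00000004508.6, chromosome 7, 97081586 to 97308946, plus strand), the scaffold that recruits PI3 kinase, had the largest fold change of the 10 members between BaPs and BM mature basophils. It stood at 88.4, 99.0 and 73.8 CPM for BaPs, 159, 167.5 and 166 for pre-basophils, 251, 277 and 265 for the BM mature group and 221, 242 and 270 for the spleen mature group. Each BM group lay wholly apart from the next, and BM and spleen mature basophils overlapped. Gab2 was 1.89-fold lower in BaPs than in pre-basophils (log2 -0.92, SE 0.12, edgeR adjusted p 9.29e-04), and 1.74-fold lower without BaP replicate 3. Pre-basophils were 1.61-fold below BM mature basophils (log2 -0.69, SE 0.12, adjusted p 9.25e-04). The difference from BaPs to BM mature basophils was 3.05-fold (log2 -1.61, SE 0.13, adjusted p 4.74e-07), or 2.80-fold without BaP replicate 3. Spleen and BM mature basophils differed by log2 -0.12, with a 95% interval of -0.37 to 0.14.

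Plcg1 and Plcg2 encode phospholipase C gamma 1 and 2, which cleave membrane phosphoinositide into the calcium-releasing messenger and diacylglycerol. Plcg1 (ENSMUSG00000016933.17, chromosome 2, 160731300 to 160775760, plus strand) was the member with the lowest counts, and stood at 12.9, 15.8 and 17.3 CPM for BaPs, 7.83, 13.2 and 17.6 for pre-basophils, 24.8, 25.0 and 21.9 for the BM mature group and 38.3, 36.6 and 44.2 for the spleen mature group. The immature groups overlapped with each other and lay below BM mature basophils, which in turn lay below all spleen libraries. Plcg1 was 1.81-fold lower in pre-basophils than in BM mature basophils, with log2 -0.86 and SE 0.23 (edgeR adjusted p 0.0119) and 1.67-fold higher in spleen than in BM mature basophils (log2 0.74, SE 0.21, adjusted p 0.0478). BaPs were 1.54-fold below BM mature basophils (adjusted p 0.0324, and 0.0161 without BaP replicate 3). Leaving out BaP replicate 1 (0.107) or 2 (0.0638), or BM mature replicate 1 (0.0821) or 2 (0.0941), ended this call, as did library size alone (0.553), which also ended that of pre-basophils against BM mature basophils (0.0671). Of its 7857 exonic bases, 379 (4.82%) are shared with Zhx3 on the opposite strand, whose levels averaged between 3.395 and 6.23 CPM and were highest in BaPs.

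Plcg2 (ENSMUSG00000034330.10, chromosome 8, 117498291 to 117635142, plus strand) had 48.3, 37.5 and 40.2 CPM for BaPs, 33.0, 39.4 and 44.1 for pre-basophils, 31.2, 33.6 and 30.7 for the BM mature group and 48.0, 49.8 and 41.8 for the spleen mature group. BM mature basophils lay below BaPs and spleen mature basophils without overlap, and overlapped with pre-basophils. Plcg2 was 1.46-fold higher in spleen than in BM mature basophils, with log2 0.55 and SE 0.14 (edgeR adjusted p 0.0335). It was also the only member higher in BaPs than in BM mature basophils (1.32-fold, log2 0.40, SE 0.14, adjusted p 0.0354), and 1.36-fold higher without BaP replicate 3 (adjusted p 0.0263). This call was lost without BaP replicate 1 (0.137) or any BM mature library (0.0910, 0.0563 and 0.103 without replicates 1 to 3), with DESeq2 (0.0792), with the median-ratio (0.0519) or upper-quartile (0.0594) scaling, without the filter on low counts (0.0813) and in a fit of these groups alone (0.0626).

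Inpp5d (ENSMUSG00000026288.14, chromosome 1, 87620312 to 87720507, plus strand) encodes the lipid phosphatase SHIP1. It stood at 82.7, 90.5 and 94.2 CPM for BaPs, 106, 113 and 110.2 for pre-basophils, 121, 121 and 132 for the BM mature group and 136, 138 and 153.5 for the spleen mature group. The 4 groups did not overlap, and adjacent groups differed by small amounts. Of these steps, BaPs against pre-basophils (log2 -0.30, SE 0.10, edgeR adjusted p 0.0992), pre-basophils against BM mature (-0.19, SE 0.10, 0.202) and spleen against BM mature (0.19, SE 0.10, 0.263) were not called, and the first was not without BaP replicate 3 either (-0.33, 0.0511). Over the longer span, BaPs were 1.40-fold below BM mature basophils (log2 -0.48, SE 0.10, adjusted p 0.00179), and 1.43-fold without BaP replicate 3. With library size alone this call ended (log2 -0.05, adjusted p 0.749).

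The step from pre-basophils to mature basophils can be read within the BM. Of the 10 members, 6 were called, namely Syk, Gab2, Btk, Plcg1, Lat2 and Lyn, and all of these were lower by 1.36-fold to 1.81-fold. Over all genes tested, 11.0% were called lower and 16.3% higher. The median log2 difference of the members was -0.49, against 0.00 over all genes tested. The count of lower members was again 6 without BaP replicate 3, and Lat was called higher, in a background of 15.8% lower and 19.8% higher.

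BaPs and pre-basophils, both CLEC12A-high, differ by CD34. Gab2, Lat2 and Btk were the 3 members called, all lower in BaPs, by 1.57-fold to 1.89-fold. The background was 4.29% lower and 2.79% higher. The members' median was -0.33, against 0.02 over all genes. Leaving out BaP replicate 3 added Fyn, which made 4 members, and the background was then 6.47% lower and 5.97% higher.

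Spleen and BM mature basophils share their surface phenotype and differ in tissue. Plcg1 and Plcg2 were the 2 members called, both higher in spleen, by 1.67-fold and 1.46-fold, where 3.16% of all genes were called higher and 4.67% lower. The calls of Plcg1 and Plcg2 were close to the threshold. Leaving out any one of the BM mature or spleen mature libraries, or pre-basophil replicate 2, ended both, with adjusted p-values up to 0.169 for Plcg1 (without spleen mature replicate 3) and 0.134 for Plcg2 (without BM mature replicate 1), while the log2 differences stayed within 0.66 to 0.79 and 0.50 to 0.63. The Plcg1 call also ended without BaP replicate 2 (0.0560), and both ended with the scaling rebuilt from the study (0.0572 and 0.0614). Without BaP replicate 3, 3 members were called (Plcg1, Plcg2 and, lower, Fyn), where 7.99% of all genes were higher and 10% lower. The B cell marker sums of spleen replicates 1 to 3 were 325, 304 and 180.5 CPM beside Plcg2 levels of 48.0, 49.8 and 41.8 CPM and Plcg1 levels of 38.3, 36.6 and 44.2 CPM, and their part in the result was not tested.

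Over the whole span from BaPs to BM mature basophils, 9 of 10 members were called, of which 8 were lower in BaPs (1.40-fold for Inpp5d to 3.05-fold for Gab2) and Plcg2 was higher. Lat differed by log2 -0.19 (95% interval -0.50 to 0.11, edgeR adjusted p 0.291), and by -0.03 without BaP replicate 3. The background was large in this comparison, with 19.7% of all genes called lower and 25.3% higher. The members' median log2 difference was -0.67, and it was 0.05 over all genes. Without BaP replicate 3, 9 members were again called, in a background of 23.9% lower and 27.4% higher, with a median of -0.84. This comparison shares its BM mature libraries with the first and the third and its BaP libraries with the second, so that these are not independent of one another.

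**Figure D2:**
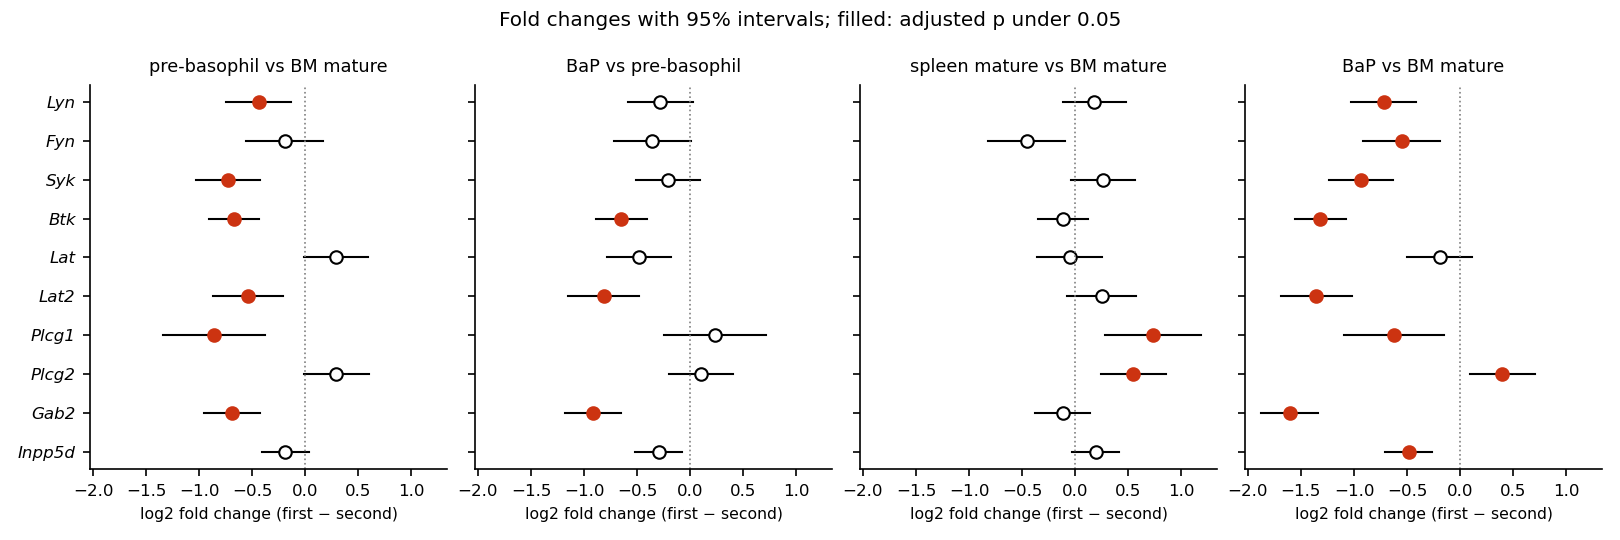
Log2 fold change of each member in the 4 comparisons (first group minus second group), with 95% intervals from the edgeR fit. Filled points passed an adjusted p of 0.05. In the left panel 6 members lie below 0 and are filled, and in the right panel Plcg2 is the filled point above 0.

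The related genes were also compared with each other within a library, since such ratios do not depend on how libraries are scaled. Differences of the log2 ratio between the 6 CLEC12A-high libraries (BaPs and pre-basophils) and the 6 CLEC12A-low libraries were tested by exact two-sided permutation over 924 assignments, whose smallest possible p is 0.002165, with adjustment over 3 ratios. The groups within each set are not replicates of a single group, so the means of each group are given too. Permutation was also kept within replicate numbers (216 assignments). This block included the spleen libraries, whose numbers were not taken to pair them with those of the BM. The adjusted p was then 0.0139 for Lat over Lat2 and for Plcg1 over Plcg2, and 0.0278 for Lyn over Fyn. Since the genes differ in transcript length, the sign of a ratio says nothing about which gene was expressed more.

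The log2 ratio of Lat to Lat2 averaged -0.57 ± 0.20 for BaPs, -0.92 ± 0.15 for pre-basophils, -1.74 ± 0.15 for BM mature and -2.05 ± 0.19 for spleen mature basophils (SD, n = 3 each). It ran from -1.07 to -0.38 in the CLEC12A-high and from -2.27 to -1.59 in the CLEC12A-low libraries, so that these did not overlap. The difference was 1.15 (exact permutation p 0.002165, adjusted 0.00325), and 1.11 without BaP replicate 3. The ratio thus shifted from Lat towards Lat2 in mature basophils. The exonic bases that Lat2 shares with Rfc2 limit this ratio too.

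For Plcg1 over Plcg2, the log2 ratio was -1.43 ± 0.38 for BaPs, -1.62 ± 0.35 for pre-basophils, -0.41 ± 0.08 for BM mature and -0.23 ± 0.27 for spleen mature basophils (SD, n = 3 each). The CLEC12A-high libraries lay between -2 and -1.20 and the CLEC12A-low libraries between -0.48 and 0.08, again without overlap. Mature basophils had relatively more Plcg1, by 1.21 on the log2 scale (difference -1.21 for high minus low, exact permutation p 0.002165, adjusted 0.00325). The difference was -1.27 without BaP replicate 3.

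The ratio of Lyn to Fyn separated less clearly, with log2 means of -1.49 ± 0.27 for BaPs, -1.60 ± 0.14 for pre-basophils, -1.36 ± 0.12 for BM mature and -0.72 ± 0.07 for spleen mature basophils (SD, n = 3 each). The libraries of the CLEC12A-high and CLEC12A-low sets overlapped. The difference was -0.51 (exact permutation p 0.0195, adjusted 0.0195), or -0.47 without BaP replicate 3 (exact permutation p 0.0455, adjusted 0.0455). The ratio of all 3 spleen libraries (-0.78 to -0.65) exceeded that of every BM library, a difference that was not tested. Within the 6 pre-basophil and BM mature libraries alone the 3 differences were 0.83, -1.22 and -0.24 for Lat over Lat2, Plcg1 over Plcg2 and Lyn over Fyn, where 20 assignments cannot give a p below 0.1.

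**Figure D3:**
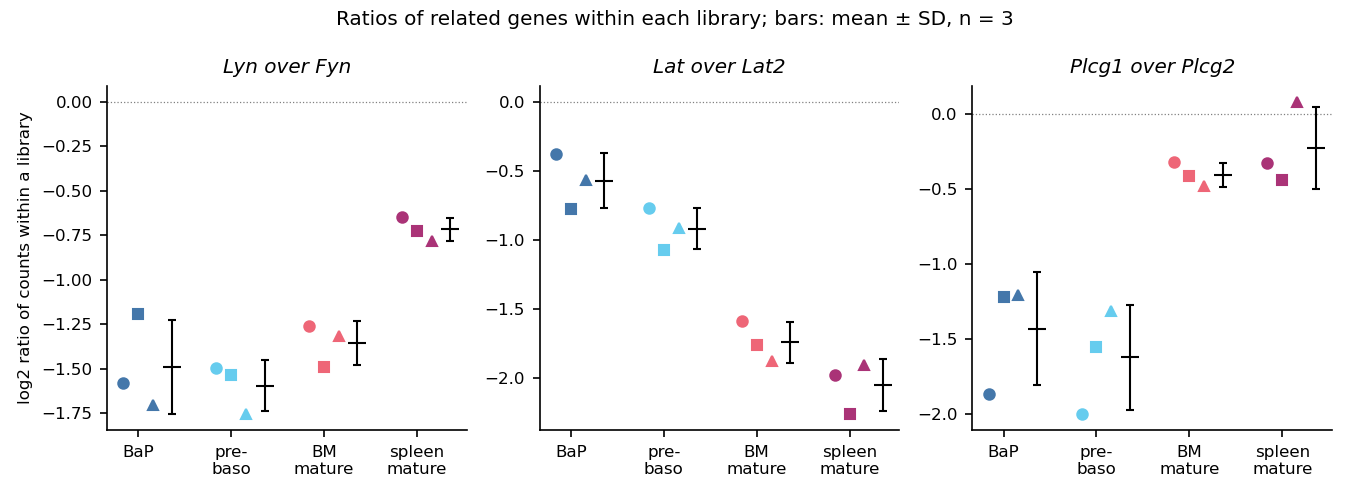
Log2 ratio of the counts of related genes within each library, by group, with the mean ± SD (n = 3). Lat over Lat2 lies at -1.07 or above in all BaP and pre-basophil libraries and at -1.59 or below in all mature ones, and Plcg1 over Plcg2 shows the opposite order.

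A further list of 78 genes of the IgE receptor pathway, of which 72 were tested, places the members among their partners. In pre-basophils against BM mature basophils, 20 of the 72 were called, 5 higher and 15 lower, with a median log2 difference of -0.22. The share called, 27.8%, was near that of all genes (27.3%). Without BaP replicate 3 the counts were 32 of 71, with 5 higher and 27 lower (7.04% and 38%), beside 19.8% and 15.8% of all genes. Of the 3 receptor chains, 2 were called, both higher. Ms4a2, the beta chain, and Fcer1a, the IgE-binding alpha chain, exceeded BM mature basophils by 1.75-fold and 1.74-fold in pre-basophils (edgeR adjusted p 0.0180 and 0.0294), while Fcer1g, the gamma chain, differed by log2 -0.05. In the same comparison the lower members Syk, Btk and Gab2 were 1.59-fold to 1.66-fold down. The Fcer1a call ended on leaving out any of the 6 pre-basophil and BM mature libraries (adjusted p 0.0554 to 0.104). That of Ms4a2 ended without replicate 1 of the pre-basophils (0.0603) or replicates 1 (0.0645) and 3 (0.0683) of the BM mature group. Without BaP replicate 3 both were called (edgeR adjusted p 4.29e-06 for Fcer1a and 1.06e-06 for Ms4a2). Over single libraries left out, the log2 differences stayed within 0.745 to 0.845 for Fcer1a and 0.754 to 0.874 for Ms4a2.

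Among the other roles in this comparison, 4 of 10 other kinases were called, all lower (Csk, which switches off Src kinases, Tec, Fer and Ptk2b, median -0.47). Of the calcium and diacylglycerol genes 5 of 14 were called, 4 lower, with Prkca (protein kinase C alpha) 1.58-fold higher (adjusted p 0.00637). Of 11 Ras and MAP kinase genes 4 were called, of which Mapk14, encoding p38 alpha, fell most (2.32-fold, 168 ± 10.7 CPM beside 391 ± 24.6 CPM in mature cells, SD, n = 3 each, edgeR adjusted p 1.05e-05). The most abundant genes of 4 roles were not called, namely Fes, a kinase gene (185 CPM beside 242 in mature cells, adjusted p 0.0870), the adaptor gene Grb2 (258 beside 266, 0.863), Ptprc, encoding the phosphatase CD45 (173 beside 315, 0.169), and Pik3cd, encoding the delta subunit of PI3 kinase (80.8 beside 137, 0.0592). On leaving out BaP replicate 3, Fes (0.00536), Ptprc (2.51e-06) and Pik3cd (6.76e-04) were called lower in this comparison. Pag1, the membrane adaptor that holds Csk, was 2.88-fold lower (adjusted p 0.00161) and Pirb, an inhibitory receptor, 3.52-fold lower (adjusted p 0.00120).

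Between BaPs and pre-basophils 13 pathway genes were called, 12 of them lower in BaPs, with a median of -0.19, and 26 of 71 without BaP replicate 3, 25 of them lower, with a median of -0.34. The share called was 18.1% beside 7.08% of all genes, and without that library 1.41% were higher and 35.2% lower beside 5.97% and 6.47% of all genes. Cd200r3, an activating receptor used in the sort, was 1.998-fold lower and Tec 1.63-fold lower, or 1.67-fold and 1.46-fold without that library (edgeR adjusted p 0.00744 and 0.00796 with it). Both calls ended in a fit of these groups alone (0.0593 and 0.0553). The only pathway gene called higher was the T and NK cell kinase gene Lck, with 3.58, 4.01 and 118 CPM in BaP replicates 1 to 3 and 2.43 to 3.04 CPM in pre-basophils. The Lck difference was log2 0.45 (adjusted p 0.575) without BaP replicate 3, and its call also ended without any one pre-basophil (0.128 to 0.152), BM mature (0.0553 to 0.0628) or spleen library (0.0603 to 0.0613), with the replicate block (0.0531), with limma voom (0.293) and in a fit of these groups alone (0.136). Likewise Cbl and Cblb, encoding ubiquitin ligases, were called higher in BaPs than in BM mature basophils (2.67-fold and 2.17-fold) and were not without BaP replicate 3 (log2 0.29, adjusted p 0.139, and 0.33, adjusted p 0.310). Neither call held without BM mature replicate 1 (0.0561 and 0.0910) or 2 (0.0619 and 0.113), with limma voom (0.0710 and 0.0687) or in a fit of these groups alone (0.0709 and 0.0840).

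Over BaPs against BM mature basophils, 41 pathway genes were called, 10 higher and 31 lower (median -0.30), and 47 of 71 without BaP replicate 3, 7 higher and 40 lower (median -0.59). The share called was 56.9% beside 45% of all genes, and without that library 9.86% were higher and 56.3% lower beside 27.4% and 23.9% of all genes. The 3 with the largest falls among those with at least 10 CPM in the higher group were Pirb (4.79-fold), Pag1 (4.79-fold) and Mapk14 (2.92-fold), which without that library were 7.58-fold, 7.87-fold and 2.68-fold lower. This order held only with BaP replicate 3, since without it genes such as Prkcq (5.72-fold) and Pik3r5 (4.48-fold) fell more than Mapk14. In spleen against BM mature basophils, 7 pathway genes were called, 2 higher and 5 lower (median 0.06), and 24 of 71 without BaP replicate 3, 12 in each direction (16.9% each), beside 7.99% of all genes higher and 10% lower. With all libraries the share called was 9.72%, beside 7.83% of all genes. Ms4a2 and Fcer1g were 1.82-fold and 1.59-fold lower in spleen (adjusted p 0.0372 and 0.0335) while the phosphatase gene Ptpn6 (SHP-1) was 1.63-fold higher (132 ± 3.07 CPM beside 80.7 ± 5.53 CPM with SD and n = 3, edgeR adjusted p 0.00293), and Pik3ca 1.70-fold higher (adjusted p 0.0358). The Ms4a2 call ended without any one pre-basophil, BM mature or spleen library (adjusted p 0.0540 to 0.138), that of Fcer1g without any of these except pre-basophil replicate 3 (0.0513 to 0.144), and that of Pik3ca without any except pre-basophil replicate 1 and spleen mature replicate 1 (0.0516 to 0.148). Map2k1, encoding the kinase MEK1, was 1.40-fold lower (0.0406), a call that ended without any BM mature or spleen library, pre-basophil replicate 2 or 3 or BaP replicate 2 (0.0510 to 0.135), without the filter (0.121) and with library size alone (0.116). Ptpn6 was called under all 22 alternatives. With all libraries, Plcg1 and Plcg2 were called higher in spleen beside the receptor chain genes Ms4a2 and Fcer1g, called lower there. Each of these calls ended on leaving out any BM mature or spleen mature library. Fcer1a, the third chain gene, averaged 524 CPM in spleen beside 903 CPM in BM mature basophils and was not called with all libraries. Without BaP replicate 3 all 3 chain genes were called lower in spleen (edgeR adjusted p 3.93e-05 for Fcer1a, 5.59e-06 for Ms4a2 and 1.83e-04 for Fcer1g).

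**Figure D4:**
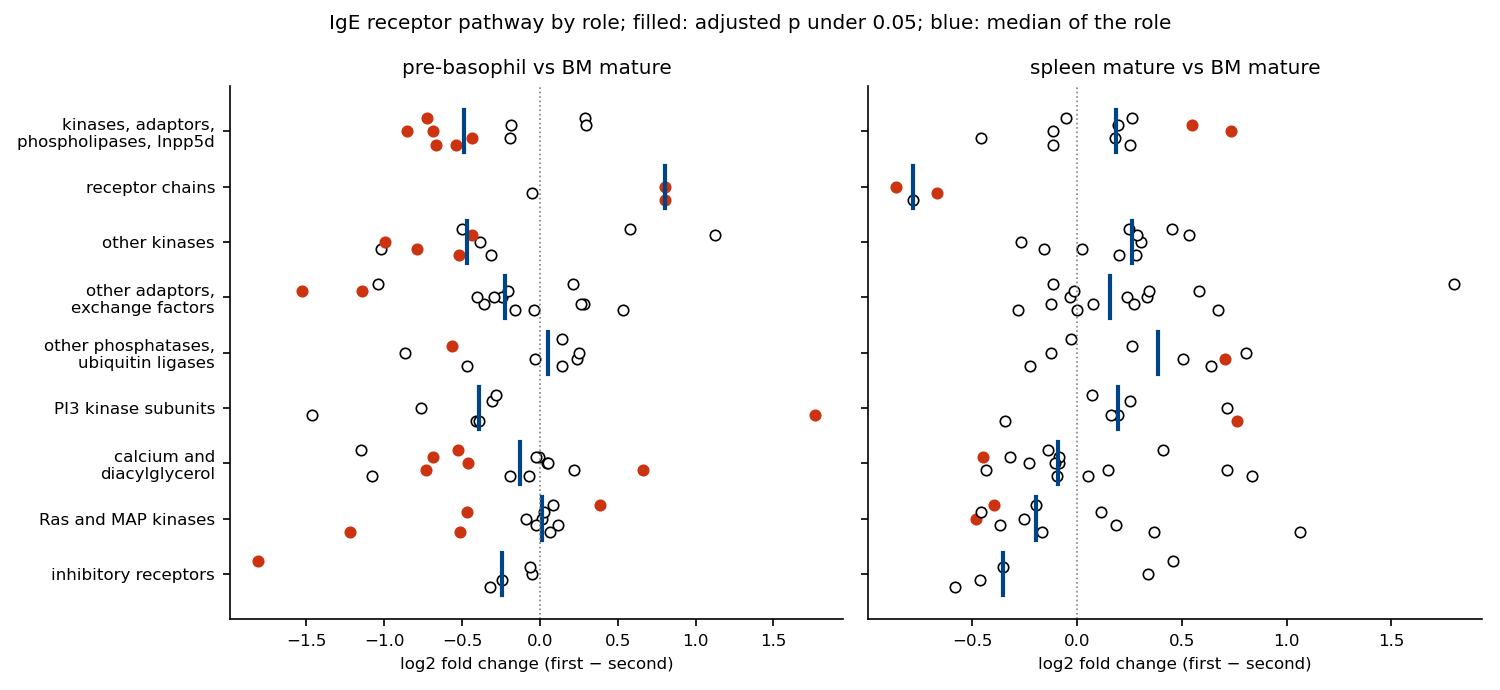
Log2 fold change of the members (top row) and of the other IgE receptor pathway genes by role, for pre-basophils against BM mature basophils (left) and spleen against BM mature basophils (right). Filled points passed an adjusted p of 0.05, and the blue bar is the median of the role. On the left the median of the receptor chains is 0.80, with Fcer1g at -0.05, and that of the members is -0.49.

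Members that moved together were described by Pearson's correlation of log2 CPM over the 12 libraries. It reflects the 4 groups and shared scaling and is given with no test. BaP replicate 3 was included, and no correlation was computed without it. That library had the lowest level of both Lat (113.7 CPM) and Il3ra (104 CPM). Btk and Gab2 had r 0.987, Gab2 and Lat2 0.971, Btk and Lat2 0.953, Inpp5d and Lat2 0.929, and Syk and Inpp5d 0.921. With another member, Lat had no r above 0.343 and Plcg2 none above 0.291. Among all genes averaging at least 10 CPM, Prkcd, encoding protein kinase C delta, was nearest both to Gab2 (0.993) and to Btk (0.990). The nearest genes were Gmip for Syk (0.995), Taldo1 for Lat2 (0.992), Mtmr3 for Lyn (0.982), Stat5b for Inpp5d (0.982), Gch1 for Fyn (0.941), the IL-3 receptor alpha chain gene Il3ra for Lat (0.939) and Mrpl48 for Plcg2 (0.859). For Plcg1 it was the gene model AC163703.1 (0.969).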

How the data were processed

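Raw counts of reads for each gene, as deposited by the authors, were used for 12 libraries, with no pooling of replicates. Per the study's methods, the authors trimmed reads with Cutadapt 3.4, mapped them with Bowtie2 2.4.2 to GRCm38 reference transcripts and counted reads per gene after whole-transcriptome PCR amplification. The submitters' processing notes name GRCm39 and mm39 instead, so gene positions here are those of GENCODE M21 on GRCm38. Strand use, assignment of multi-mapping reads and molecular identifiers are not given in the sources used here.

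Genes were filtered with filterByExpr, scaled by TMM (trimmed mean of M values) and fitted in 1 quasi-likelihood model of all 12 libraries with edgeR 4.0.16 (R 4.3.3), without a replicate term, and called at a Benjamini-Hochberg adjusted p under 0.05 over all genes tested. The study's package TCC was not used, and its iterated scaling was rebuilt as an alternative. Further alternatives used other scalings, filters, DESeq2 1.42.0, limma 3.58.1 voom, a replicate block, fewer groups, and 1 library left out. Log2 CPM used a prior count of 2, and ratios a pseudocount of 2 counts. Counting noise alone did not account for the differences between replicates: a chi-square per degree of freedom was 4.16 to 35.0 between libraries of a group, so each was counted as 1 sample.

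Replicate numbers come from the sample titles. Deviations of same-numbered libraries from their group means correlated with r 0.125 to 0.262 in all 9 pairs within the BM, so there the numbers were taken to pair the libraries, and with r 0 to 0.09 in the 9 pairs with spleen, where they were not. Blocked values stand beside the ratio tests and beside the results whose call they change.

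Genes named were all members, the 3 pathway genes of highest and the 3 of lowest fold change among those called with at least 10 CPM in the higher group of each comparison, the most abundant gene of each role, and for each member the 3 nearest genes by correlation, of which the first is printed. Other pathway and marker genes were named after their values were seen. The members, gene lists and tests were chosen with earlier results of these data known. One pathway gene that this rule named is not reported here.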

Additional observations from a re-analysis of the deposited data

How the results depend on the processing

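Calls of Gab2, Btk and Syk between pre-basophils and BM mature basophils held under all 22 alternatives, as did those of Gab2, Btk and Lat2 between BaPs and pre-basophils. No called difference of a member changed sign. Scaling by library size alone moved the median of all genes to 0.22, 0.23, 0.14 and 0.48 in pre-basophils against BM mature, BaPs against pre-basophils, spleen against BM mature and BaPs against BM mature (82.5%, 79.6%, 60.6% and 82.9% of calls higher, against 59.8%, 39.4%, 40.4% and 56.3%). Under it, pathway calls were 13 in the first and 7 in the second comparison, 5 members were called in the last, and the signs turned for Fyn (0.03) and Inpp5d (0.036) in the first, Syk (0.007) in the second, Btk (0.014), Lat (0.073) and Gab2 (0.01) in the third and Lat (0.21) in the last. Sign changes also followed leaving out BaP replicate 1 (Plcg2 -0.007 to 0.207 over single libraries left out, BaPs against pre-basophils), BaP replicate 3 (Lck -0.575 to 3.624, BaPs against BM mature) and spleen replicate 1 (Lat -0.155 to 0.011, spleen against BM mature). The scaling rebuilt from the study called 0 members in spleen against BM mature in edgeR (3 at an unadjusted p under 0.05), where DESeq2 and limma voom called 2. Without the filter, 58.8% of BaP calls against pre-basophils were higher, and pathway calls were 28 (BaPs against pre-basophils) and 12 (spleen against BM mature). Fits of only the groups compared gave 33, 2 and 23 pathway calls in the first 3 comparisons. The ratios within pre-basophils and BM mature basophils were -0.24, 0.83 and -1.22 for Lyn over Fyn, Lat over Lat2 and Plcg1 over Plcg2. The cause of these changes was not tested.

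With 1 library left out, members called ranged from 4 to 7, 3 to 4, 0 to 3 and 6 to 9 in the 4 comparisons and from 7 to 10 over all groups, and pathway genes from 13 to 32, 4 to 26, 1 to 24, 28 to 47 and 38 to 55. The ratio differences ranged from -0.60 to -0.43, 1.08 to 1.22 and -1.27 to -1.11. With the replicate block, pathway calls in spleen against BM mature were 14, in a pair of groups whose numbers did not correlate (r 0.008 to 0.025). The count of members called in each comparison was as without it (6, 3, 2 and 9), and 9 over all groups, where Lat was lost (0.0510). The block also ended the Lck call of BaPs against pre-basophils (0.0531) and no other call of a member or of a pathway gene named for its fold change. By the mean r with libraries of the other groups, all 12 libraries were closest to their own number. Pairs with spleen had an r of 0 to 0.09. Depth limits Plcg1 most, with as few as 28 counts.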
